A study of Homo sapiens with 5 samples.

Results

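The genes described here are 10 genes of histone supply, histone deposition and chromatin upkeep linked to DNA replication: NASP, ASF1A, ASF1B, CHAF1A, CHAF1B, UHRF1, DNMT1, SLBP, HELLS and EZH2. They were followed in GFP-SAS, a squamous cell carcinoma line of the human tongue whose name marks a green fluorescent protein, by an Affymetrix GeneAtlas array of total RNA. Cells received DMSO (the vehicle), 100 nM MLN8237 (alisertib, an inhibitor of Aurora kinase A), a non-targeting siRNA (siNT), or 10 nM of siAURKA-1 or siAURKA-2, which are 2 siRNAs that target AURKA, the Aurora kinase A gene, and all were treated for 24 h. Each of the 5 groups is 1 array of a single cell line, so no difference below has a replicate check and no test could be run. A gene was read by every probe set that names it alone, and its value on an array is the median of those probe sets; a difference for a gene is that between 2 such values. All 10 genes were found, with 26 of the 49386 probe sets on the array, among 18239 genes in all.

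When a fork passes, nucleosomes are taken apart and both daughter strands must be repackaged. NASP holds a soluble reserve of histones H3 and H4, ASF1A and ASF1B hand H3-H4 dimers onward, and chromatin assembly factor 1 (CAF-1), whose large and middle subunits are CHAF1A and CHAF1B, deposits them on new DNA. UHRF1 recognises hemimethylated CpG sites and brings in DNMT1, the maintenance DNA methyltransferase, while HELLS, a SNF2-family remodeller, opens nucleosomal DNA for methylation. SLBP binds the stem-loop of histone mRNAs and is needed for their processing and translation in S phase. EZH2 is the catalytic subunit of Polycomb repressive complex 2 (PRC2), which methylates histone H3 at a lysine linked to gene silencing. Many of these genes are known targets of E2F transcription factors and are transcribed most as cells enter S phase.

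Since many of the genes are known E2F targets, the promoters were read for E2F-type words. The table of RefSeq promoters (GRCh38.p14) holds windows of 300 bases around annotated starts, and all 10 genes matched, with 13 windows between them. The words searched were TTTGGCGC, TTTCCCGC, TTTCGCGC and TTTGCCGC on both strands. They occurred in 5 of the 13 windows, in HELLS, UHRF1, DNMT1 and EZH2, against 3.31% of all 35116 windows. By gene this is 4 of 10, against 5.40% of 15843 protein-coding genes. The same words without their first T, which lie inside the longer ones and were added after the promoters had been seen, were also found in CHAF1A and CHAF1B, making 6 of 10 genes against 20.5% of protein-coding genes. NASP, ASF1A, ASF1B and SLBP held neither set of words in these windows. The stretches with the words are shown 5′ to 3′ along the gene, with the words in capitals. Whether genes with the words differ in expression from those without them was not tested.
HELLS, chr10:94545692-94545787, plus strand, ending just before the start: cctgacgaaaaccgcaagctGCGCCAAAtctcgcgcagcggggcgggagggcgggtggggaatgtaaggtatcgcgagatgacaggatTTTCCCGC
UHRF1, chr19:4909377-4909500, plus strand, upstream of 1 of its 3 starts: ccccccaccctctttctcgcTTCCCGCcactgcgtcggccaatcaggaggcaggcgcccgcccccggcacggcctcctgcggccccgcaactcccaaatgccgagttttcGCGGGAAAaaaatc
CHAF1A, chr19:4402583-4402639, plus strand: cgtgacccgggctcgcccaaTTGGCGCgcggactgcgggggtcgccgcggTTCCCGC
DNMT1, chr19:10194937-10194966, minus strand, across the start: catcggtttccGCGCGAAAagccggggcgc
EZH2, chr7:148884272-148884301, minus strand, across 1 of its 2 starts: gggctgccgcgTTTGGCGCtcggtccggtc
CHAF1B, chr21:36385379-36385408, plus strand, across the start: gcctgcggcgcGCGGGAAgcggcgcgcgct
A second start of UHRF1 had TTTCGCGC in its window as well. HELLS was the gene with 2 of the longer words in 1 window. ASF1B alone held a CHR word (TTTGAA, or its variant TTCGAA; present in 16.4% of all windows), an element known from genes transcribed late in the cell cycle, downstream of an inverted CCAAT box. CCAAT was found in 7 of the 10 genes and in 42.1% of protein-coding genes.
ASF1B, chr19:14136590-14136649, minus strand, ending just before the start, CCAAT and CHR words in capitals: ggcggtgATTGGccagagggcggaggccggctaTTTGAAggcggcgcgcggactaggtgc
A match of letters is a description of these windows and not a bound site.

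The deposited values were centred by the authors so that the median over the 5 arrays is 0 for every probe set. They are taken as log2 and compare arrays, but they give no level, so the genes cannot be ranked by abundance and the labelled cell type could not be checked against squamous markers. The targeted gene AURKA, read by 1 probe set, stood at 9.71% of siNT on the siAURKA-1 array and at 16.0% on the siAURKA-2 array. A difference counts here as called when it is at least 1.5-fold, which is 0.58 on the log2 scale. Both siRNA comparisons use the same siNT array, and both MLN8237 and siNT were compared with the same DMSO array, so the comparisons of each pair are not independent. Across all genes the median difference was 0.00 in each of these comparisons.

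Against siNT, all 10 genes lay lower on the siAURKA-1 array and 9 of 10 on the siAURKA-2 array, whereas 42.2% and 42.3% of all genes were below 0 in these comparisons. The median of the 10 genes was -0.49 with siAURKA-1 and -0.46 with siAURKA-2. At 1.5-fold, 4 genes were called lower with siAURKA-1 (HELLS, DNMT1, ASF1B and UHRF1), where 4.48% of all genes were called lower, and 0 were called higher (2.57% of all genes). With siAURKA-2 0 of the 10 genes reached 1.5-fold, where 3.11% of all genes were called lower and 1.96% higher. The lowest there was ASF1A at -0.57, just short of the threshold. At a looser threshold of 0.32 on the log2 scale, 7 genes were lower for siAURKA-1 (9.67% of all genes) and 7 for siAURKA-2 (8.16%). Of the single probe sets, 23 of 26 read below siNT on the siAURKA-1 array and 21 of 26 on the siAURKA-2 array. These belong to the same 10 genes and arrays, so they are not independent of the gene counts. The share over all probe sets was not computed.

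**Figure D1:**
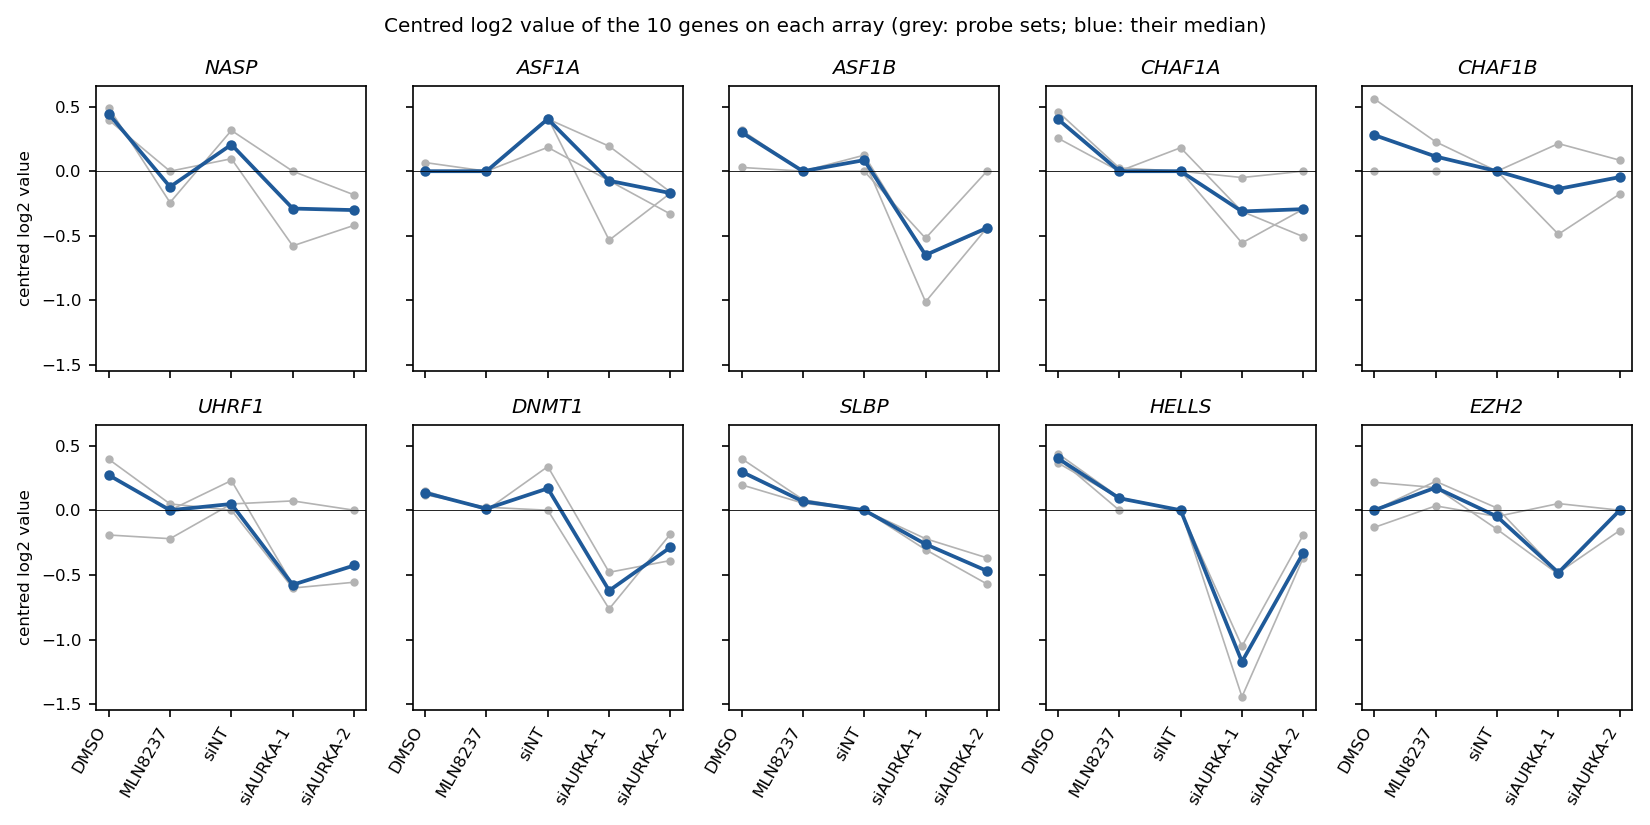
Centred log2 value (vertical axis) of each of the 10 genes on the 5 arrays (horizontal axis, 1 array per treatment); grey points are probe sets, blue points their median, and the joining lines carry no order. The lowest array was siAURKA-1 for 7 genes and siAURKA-2 for 3, and the highest was DMSO for 7.

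The histone carriers stand first in the pathway. NASP, on the 5 arrays, read 0.44 with DMSO, -0.12 with MLN8237, 0.21 with siNT, -0.29 for siAURKA-1 and -0.30 for siAURKA-2. By this value both AURKA siRNA arrays lay together at the bottom, MLN8237 read between them and siNT, and DMSO was highest. The 2 probe sets of NASP ordered the low arrays differently. In 1 of them MLN8237 was lowest (-0.24), with siAURKA-1 at 0.00 and siAURKA-2 at -0.18. In the other MLN8237 was at 0.00, with siAURKA-1 at -0.58 and siAURKA-2 at -0.42. Against siNT the difference was -0.49 for siAURKA-1 and -0.51 for siAURKA-2, and both probe sets had this direction in each case. ASF1A read 0.00 with DMSO, 0.00 with MLN8237, 0.40 with siNT, -0.07 for siAURKA-1 and -0.17 for siAURKA-2. Here the siNT array stood apart on the high side, and the other 4 arrays lay close together. ASF1A was therefore -0.48 and -0.57 below siNT but only -0.07 and -0.17 below DMSO. Its 3 probe sets were all below siNT, though they spread from -0.95 to -0.21 with siAURKA-1, where the median of their differences was -0.26, and only from -0.58 to -0.52 with siAURKA-2. Against DMSO they disagreed in sign on the siAURKA-1 array, at -0.60, -0.07 and 0.19, and were all lower on the siAURKA-2 array (-0.33 to -0.16).

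ASF1B, the paralog of ASF1A that is known to follow proliferation, had another pattern. It read 0.30 with DMSO, 0.00 with MLN8237, 0.09 with siNT, -0.65 for siAURKA-1 and -0.44 for siAURKA-2. The AURKA siRNA arrays were the lowest and were set off from the other 3. The difference from siNT was -0.73 with siAURKA-1 (1.66-fold lower) and -0.52 with siAURKA-2 (1.44-fold lower). Against DMSO it was -0.95 and -0.74, with 3 of 3 probe sets below DMSO in each case, though 1 only by -0.03 with siAURKA-2. The gene value of ASF1B thus lay below both controls. ASF1A did so by its gene value too, but by less and with probe sets of both signs against DMSO for siAURKA-1. With siAURKA-2, 2 of the 3 probe sets of ASF1B were below siNT and the third was level with siNT at 0.00.

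The CAF-1 subunits did not reach 1.5-fold against siNT, and their probe sets differed among themselves. CHAF1A read 0.40 with DMSO, 0.00 with both MLN8237 and siNT, -0.31 for siAURKA-1 and -0.29 for siAURKA-2. DMSO was high, the AURKA siRNA arrays were low, and the other two lay in the middle. Its differences from siNT were -0.31 and -0.29, and those from DMSO -0.71 and -0.70, more than 1.5-fold. Its 3 probe sets gave -0.55, -0.49 and -0.05 against siNT on the siAURKA-1 array, so that the median of their differences was -0.49, and -0.69, -0.29 and 0.00 on the siAURKA-2 array. CHAF1B read 0.28 with DMSO, 0.11 with MLN8237, 0.00 with siNT, -0.14 for siAURKA-1 and -0.05 for siAURKA-2. It was the gene least below siNT with siAURKA-1 (-0.14), but its 2 probe sets did not share a pattern. One had a range of 1.05 over the arrays and was -0.49 below siNT with siAURKA-1, whereas the other ranged over 0.21 and was 0.21 above it. The median of the 2 therefore stands for neither.

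The maintenance methylation genes held 3 of the 4 called genes. UHRF1 read 0.27 with DMSO, 0.00 with MLN8237, 0.05 with siNT, -0.58 for siAURKA-1 and -0.43 for siAURKA-2. Both AURKA siRNA arrays were well below the other 3, by -0.62 and -0.48 relative to siNT. Of its 3 probe sets, 2 gave -0.81 and -0.60 with siAURKA-1, while the third gave 0.02 and ranged over only 0.29 on the 5 arrays. DNMT1 read 0.13 with DMSO, 0.01 with MLN8237, 0.17 with siNT, -0.62 for siAURKA-1 and -0.29 for siAURKA-2. By the gene value the 3 arrays without an AURKA siRNA were close together, and siAURKA-1 was lowest. The 2 probe sets of DNMT1 disagreed in sign for siNT against DMSO (0.19 and -0.12), so this closeness does not show equal expression. DNMT1 was 1.73-fold below siNT with siAURKA-1 (-0.79, probe sets -0.82 and -0.76). With siAURKA-2 the difference was -0.46, but the probe sets gave -0.73 and -0.18.

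HELLS had the widest range of the 10 genes. It read 0.40 with DMSO, 0.09 with MLN8237, 0.00 with siNT, -1.17 for siAURKA-1 and -0.33 for siAURKA-2. The siAURKA-1 array stood far below every other one, and siAURKA-2 was the next lowest. HELLS was 44.4% of the siNT value with siAURKA-1 (-1.17, rank 168 from the lowest of 18239 genes) and 79.6% with siAURKA-2 (-0.33, rank 1443). All 3 probe sets were below siNT in both comparisons, from -1.45 to -1.05 with siAURKA-1 and from -0.37 to -0.19 with siAURKA-2. It was the 1 gene of the 10 at least 2-fold below siNT on the siAURKA-1 array (1.38% of all genes), and 0 were on the siAURKA-2 array (0.872%).

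SLBP and EZH2 differed between the siRNA arrays in opposite directions. SLBP read 0.30 with DMSO, 0.07 with MLN8237, 0.00 with siNT, -0.26 for siAURKA-1 and -0.47 for siAURKA-2. It was lower with the second siRNA, and both probe sets agreed in this (0.15 and 0.27 higher with siAURKA-1 than with siAURKA-2). EZH2 read 0.00 with DMSO, 0.17 with MLN8237, -0.05 with siNT, -0.48 for siAURKA-1 and 0.00 for siAURKA-2. By the gene value only the siAURKA-1 array was low, and siAURKA-2 was close to both controls. The difference from siNT was -0.43 with siAURKA-1 and 0.05 with siAURKA-2. Of the 3 probe sets of EZH2, 2 gave -0.35 and -0.50 with siAURKA-1, and the third, which ranged over 0.18 on all arrays, gave 0.10. With siAURKA-2 the same 3 disagreed in sign against siNT, at 0.15, -0.17 and 0.05, so the small gene value does not show equal expression.

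**Figure D2:**
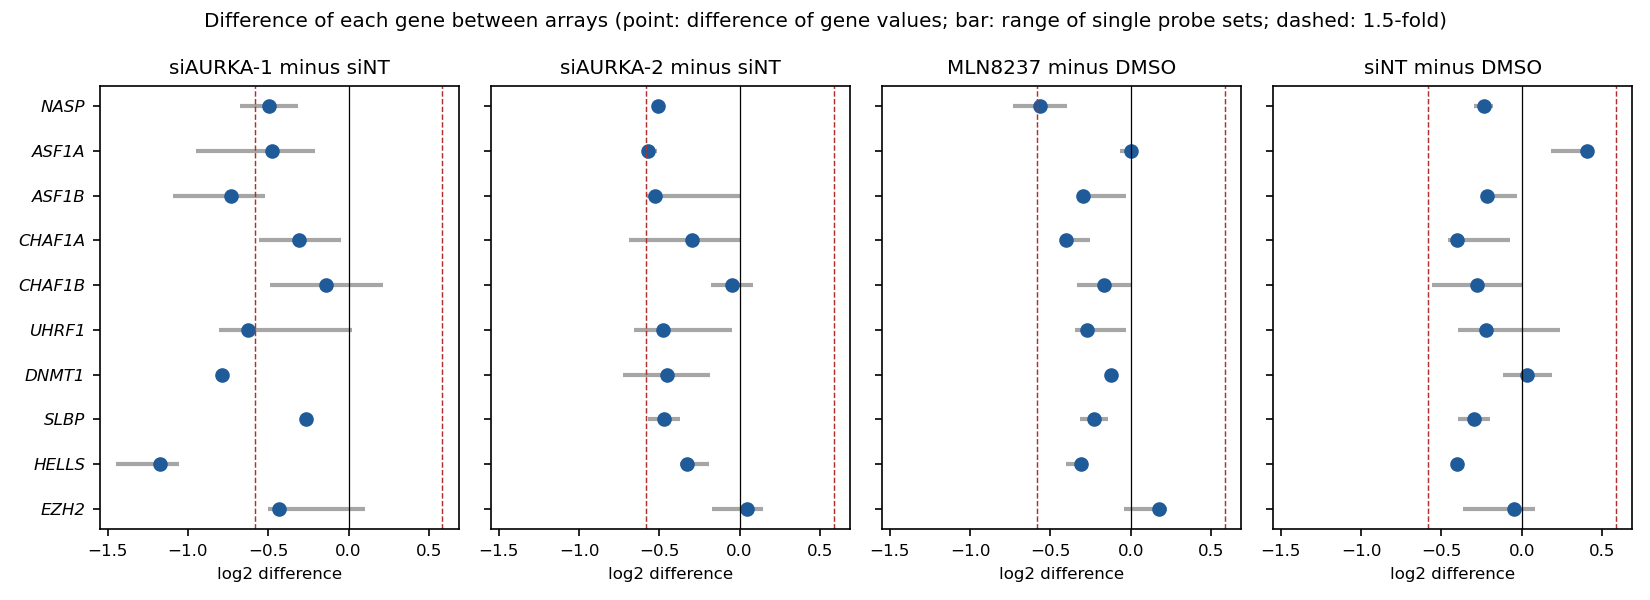
Log2 difference (horizontal axis) of each of the 10 genes in 4 comparisons of arrays; points are differences between the gene's values on the 2 arrays, bars the range of the differences of its single probe sets and dashed lines 1.5-fold. With siAURKA-1, HELLS, DNMT1, ASF1B and UHRF1 lie past the line, and no gene does in the other 3 comparisons.

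Set directly against each other, the siRNA arrays differed most in HELLS, whose difference (siAURKA-1 minus siAURKA-2) was -0.84, in all 3 probe sets (-1.08 to -0.84). It was the only one of the 10 genes past 1.5-fold, where 3.99% of all genes were called lower and 3.68% higher. At 2-fold 0 were lower (1.19% of all genes). HELLS, EZH2 (-0.48) and DNMT1 (-0.34) were the 3 genes past the looser threshold (9.18% of all genes lower). The probe sets of EZH2 gave -0.50, -0.33 and 0.05, and those of DNMT1 -0.58 and -0.09. ASF1B was -0.21 by its gene value, but its 3 probe sets were all lower (-0.57, -0.52 and -0.20). The median of their differences was -0.52, past the looser threshold. NASP (0.01), CHAF1A (-0.02), ASF1A (0.10) and CHAF1B (-0.09) had small differences, but each had probe sets of both signs. These ran from -0.36 to 0.35 for ASF1A, from -0.31 to 0.13 for CHAF1B, from -0.26 to 0.20 for CHAF1A and from -0.16 to 0.18 for NASP, so that the small values do not show equal expression. With 1 array per siRNA, a difference between reagents cannot be told apart from a difference between arrays.

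MLN8237 was then compared with its vehicle. At 1.5-fold 0 of the 10 genes were called, where 0.115% of all genes were called lower and 0.367% higher. Even so 8 of the 10 were below DMSO, against 46.1% of all genes, with a median of -0.25. NASP, at -0.57, was just short of 1.5-fold and stood at rank 26 from the lowest of 18239 genes, and both of its probe sets were lower (-0.73 and -0.40). CHAF1A followed at -0.40 (rank 84), with all 3 probe sets lower. These were the 2 genes past the looser threshold of 0.32, where 1.16% of all genes were lower. HELLS (-0.31), ASF1B (-0.30) and UHRF1 (-0.27) had 3 of 3 probe sets below DMSO, and SLBP (-0.23) and DNMT1 (-0.12) both of theirs. For ASF1B and for UHRF1, however, 1 of the 3 was almost level with DMSO, at -0.03. ASF1A was level at 0.00 and EZH2 was above DMSO (0.17), in 2 of its 3 probe sets.

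The siNT array, which received no inhibitor, also lay below DMSO for 8 of the 10 genes (39.6% of all genes), with a median of -0.23. CHAF1A (-0.40), HELLS (-0.40), SLBP (-0.30), CHAF1B (-0.28) and NASP (-0.24) were the lowest, while ASF1A was higher (0.40). At 1.5-fold 0 of the 10 were called (0.554% of all genes lower, 1.53% higher), and 2 were lower and 1 higher at the looser threshold (2.83% and 5.71%). When MLN8237 was set against siNT in place of DMSO, the median of the 10 genes was -0.02, with 5 below 0, 4 above and 1 level, against 50.9% of all genes below 0. NASP (-0.33) and ASF1A (-0.40) were lower there, and EZH2 was higher (0.22). What part the DMSO array has in these values was not tested.

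The same choice of control moved the siRNA values. The DMSO array received no siRNA. In a difference from it, AURKA targeting cannot be told apart from siRNA treatment as such. Against DMSO, 6 of the 10 genes were called lower for siAURKA-1 (3.57% of all genes) and 6 for siAURKA-2 (2.55%), with medians of -0.72 and -0.70. With siAURKA-2 these were SLBP (-0.77), NASP (-0.75), ASF1B (-0.74), HELLS (-0.73), UHRF1 (-0.70) and CHAF1A (-0.70). With siAURKA-1 they were HELLS (-1.57, 33.6% of DMSO), ASF1B (-0.95), UHRF1 (-0.85), DNMT1 (-0.76), NASP (-0.73) and CHAF1A (-0.71). For UHRF1, 1 of its 3 probe sets read above DMSO with both (0.26 for siAURKA-1 and 0.19 for siAURKA-2). EZH2 with siAURKA-2 was level with DMSO by its gene value (0.00), but its probe sets disagreed in sign (-0.22, -0.16 and 0.13).

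**Figure D3:**
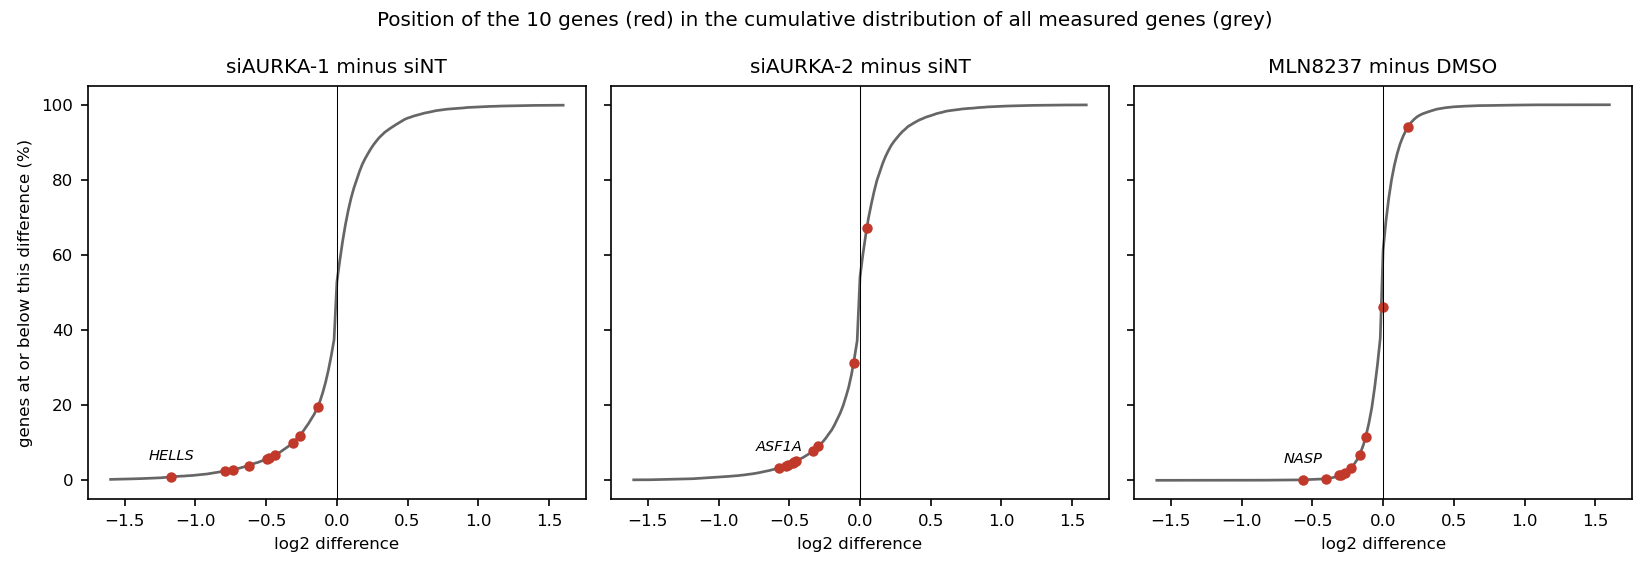
Percentage of genes (vertical axis) at or below a given log2 difference (horizontal axis) for all 18239 genes (grey curve), with the 10 genes as red points, in 3 comparisons. Points are placed by rank from the lowest, with ties given the lowest rank. ASF1A, at 0.00 for MLN8237, is therefore at 46.1%, below the curve (61.3%). The points gather at the lower end, with HELLS lowest for siAURKA-1 (-1.17), ASF1A for siAURKA-2 (-0.57) and NASP for MLN8237 (-0.57), and EZH2 above 0 for siAURKA-2 and MLN8237.

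Partners of the 10 genes were read from related lists. Of 24 further histone chaperones and deposition factors, 1 was called lower for siAURKA-1 (4.48% of all genes) and 0 for siAURKA-2 (3.11%), 0 were called higher, and the medians were -0.05 and -0.06. The lowest were MMS22L, which with TONSL reads newly replicated chromatin (-0.60 for siAURKA-1 and -0.18 for siAURKA-2), and SSRP1, a subunit of the H2A-H2B chaperone FACT (-0.40 and -0.56). The highest were ATRX, a remodeller that works with DAXX (0.47 for siAURKA-1 and -0.05 for siAURKA-2), and CDAN1, which binds ASF1 in the cytoplasm (0.40 and 0.25). RBBP4, the small histone-binding subunit of CAF-1 and of PRC2, gave 0.03 and -0.15, beside -0.31 and -0.29 for CHAF1A and -0.14 and -0.05 for CHAF1B; it is named here after its values were seen. The median of this list thus lay close to that of all genes.

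Among 9 partners in DNA methylation, 3 were called lower for siAURKA-1 (4.48% of all genes) and 1 for siAURKA-2 (3.11%), with medians of -0.20 and -0.07. CDCA7L, a relative of the HELLS activator CDCA7, was lowest with both siRNAs (-1.34 and -0.71) and was the gene of this list called with both. CDCA7 itself gave -1.09 and -0.46, and PCLAF, a PCNA-binding factor that also takes part in DNMT1 recruitment, -1.02 and -0.12; these 2 are named after their values were seen. The highest were the de novo methyltransferase gene DNMT3A with siAURKA-1 (0.55) and USP7, a deubiquitinase that binds UHRF1 and DNMT1, with siAURKA-2 (0.29).

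In the list of 8 PRC2 partners, 0 were called with siAURKA-1 and 1 was higher with siAURKA-2 (1.96% of all genes), with medians of -0.06 and 0.00. That gene was JARID2, an accessory subunit that guides PRC2 to chromatin (0.00 with siAURKA-1 and 0.70 with siAURKA-2). PHF19 was lowest with siAURKA-1 (-0.46), where the alternative catalytic subunit EZH1 was highest (0.20), and the core subunit SUZ12 was lowest with siAURKA-2 (-0.42). Of 13 genes of histone mRNA processing and turnover, 0 were called with siAURKA-1 and 1 was lower with siAURKA-2 (3.11% of all genes). The latter was ERI1, the exonuclease that binds the same stem-loop as SLBP, at -1.15 with siAURKA-2 and 0.00 with siAURKA-1. Extremes of this list were otherwise NCBP1, a cap-binding subunit (-0.39 with siAURKA-1), and LSM11 of the U7 particle (0.29 with both, where siNT itself was -0.31 relative to DMSO).

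Genes of S phase and of G2/M were read beside these, since the fraction of cells in S phase and the RNA made per cell cannot be told apart in a bulk sample. Of 11 S-phase genes, 8 were called lower for siAURKA-1 (4.48% of all genes) and 4 for siAURKA-2 (3.11%), with medians of -0.69 and -0.17. The genes called with both were the replicative helicase subunits MCM2 (-0.82 and -0.81), MCM4 (-0.87 and -0.85) and MCM7 (-0.89 and -0.77) and the ribonucleotide reductase subunit RRM2 (-0.84 and -0.81). At the upper end of the list were E2F2 with siAURKA-1 (-0.05) and the cyclin gene CCNE2 with siAURKA-2 (0.12). Of 5 G2/M genes, 4 were called lower for siAURKA-1 and 0 for siAURKA-2, beside the same shares of all genes, with medians of -0.70 and 0.03. TOP2A was lowest with siAURKA-1 (-1.36) and CCNA2 with siAURKA-2 (-0.50), and CCNB1 was highest in both (-0.40 and 0.16). With MLN8237, 11 of 11 S-phase genes were below DMSO (median -0.24, beside -0.25 for the 10 genes), where 46.1% of all genes were below 0, and the G2/M median was 0.08. The siNT array also had 11 of 11 S-phase genes below DMSO (median -0.28), and set against siNT MLN8237 had 2 of 11 below 0 (median 0.04). How far the lower values of the 10 genes go with these lists was not tested.

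**Figure D4:**
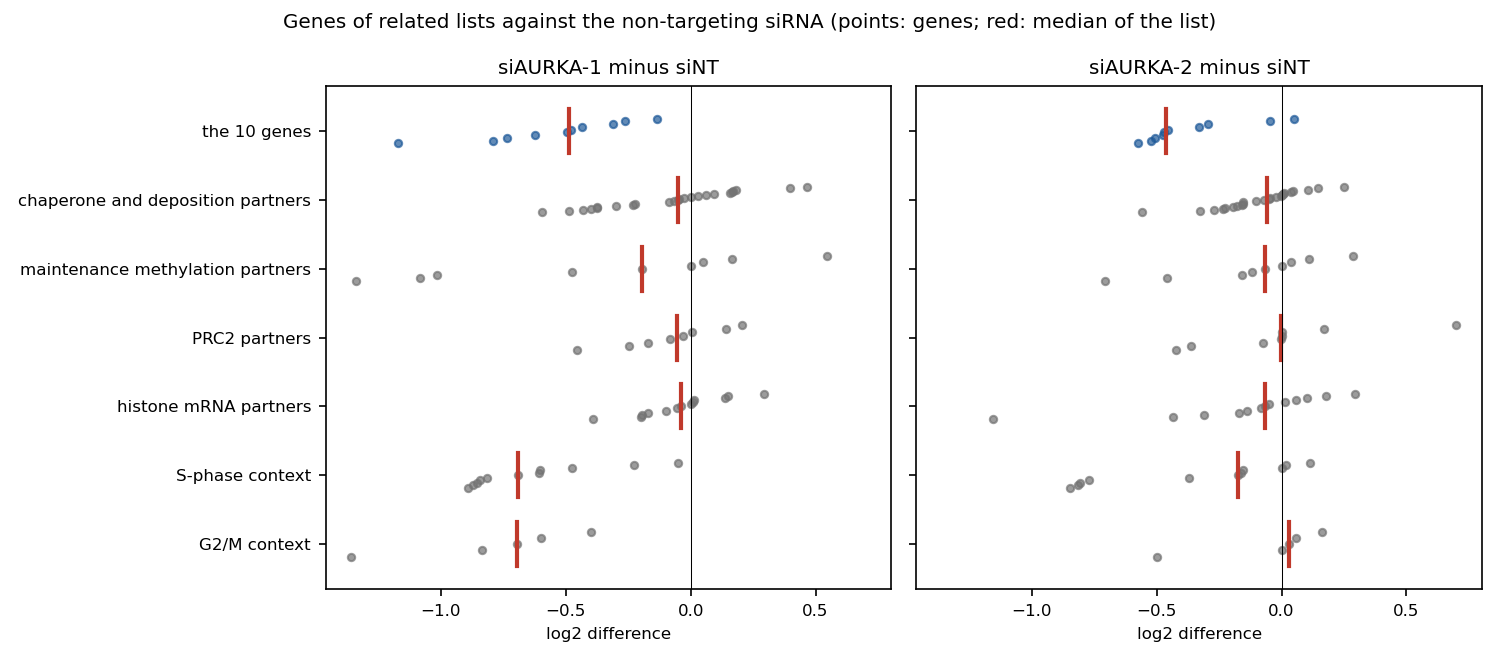
Log2 difference from siNT (horizontal axis) of the 10 genes and of 6 related lists (rows), for siAURKA-1 (left) and siAURKA-2 (right); each point is a gene and the red bar is the median of its list. The medians of the 10 genes are -0.49 and -0.46, those of the S-phase list -0.69 and -0.17, and those of the chaperone partners -0.05 and -0.06.

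Genes with the most similar readings were found by the root mean square difference, over the 4 arrays compared with DMSO. The profile of the 10 genes, as the median at each array, was -0.25 with MLN8237, -0.23 with siNT, -0.72 for siAURKA-1 and -0.70 for siAURKA-2. Closest to it were MSH6, a mismatch repair gene (root mean square difference 0.0408), DCTPP1 (0.0499), PABPC1L (0.0583), TBL3 (0.0604) and POLQ, encoding DNA polymerase theta (0.0605). DCTPP1, PABPC1L and TBL3 were read by 1 probe set each. MSH6 gave -0.25, -0.29, -0.68 and -0.66 on the same arrays. Closest to HELLS, the gene of widest range, were CDCA7 (0.0782), TCF19 (0.0957), CDC45 (0.0996), POLA2 (0.117) and GINS2 (0.121, read by 1 probe set). CDCA7 gave -0.34 with MLN8237, -0.38 with siNT, -1.47 for siAURKA-1 and -0.84 for siAURKA-2, where HELLS gave -0.31, -0.40, -1.57 and -0.73. These likenesses rest on 4 differences that share the DMSO array and describe these arrays only.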

How the data were processed

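Total RNA of 5 treatments, 1 array each, was measured after labelling 10 ng by a 3′ in vitro transcription kit, per the labels' protocols. The deposited values, taken here as log2, come from RMA (background correction, quantile normalization, median polish), per the submitters' processing notes; its software, version and log base were not given in the sources used here. The authors' table of 49386 probe sets had a median of exactly 0 over the arrays in 49386 of them. Of these, 45259 named 1 gene, 1327 several, 2713 none and 93 were controls. Symbols were updated by Entrez number for 45178 probe sets with a RefSeq gene table (GRCh38.p14), and the median of a gene's probe sets was taken, giving 18239 genes, 6416 with 1 probe set. No filter on low values was possible. For arrays, their number limits precision. Differences and counts at 1.5-fold were computed with pandas 2.3.3 in Python 3.11.15 and tested on simulated data. Alternatives were other folds, other summaries of probe sets, centred arrays and other controls. The members, lists and rules were chosen with earlier results of these data known. Named genes were all 10 members, AURKA, list genes at least 1.5-fold from siNT with both siRNAs, the extremes of each list with either siRNA, and the 5 nearest profiles of the median and of the widest member; others are stated as named after their values were seen.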

Additional observations from a re-analysis of the deposited data

How the results depend on the processing

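No paired analysis was possible because each treatment has 1 array and the labels carry no replicate numbers, and for the same reason no array could be left out. Counts below are of members past the threshold. At the looser threshold of 0.32 on the log2 scale they were 7 for siAURKA-1 minus siNT (4 at 1.5-fold), 7 for siAURKA-2 minus siNT (0), 2 for MLN8237 minus DMSO (0), 3 for siNT minus DMSO (0) and 3 for siAURKA-1 minus siAURKA-2 (1). At 2-fold they were 1 for siAURKA-1 minus siNT and 0 between the siRNAs. With DMSO as control, which received no siRNA, siAURKA-2 gave 6 (2.55% of all genes lower), and with the mean of both controls 4. Only 4 members have a probe set without the suffix _s_at, _x_at or _a_at; on these alone siAURKA-1 minus siNT gave 1 and siAURKA-1 minus siAURKA-2 gave 0, by construction with fewer genes, and UHRF1 reversed to 0.0237 on its probe set of small range. With the mean of the probe sets siAURKA-1 minus siNT gave 3, with the probe set of largest standard deviation 6, and with the median of probe-set differences, added after the data were seen, 4. The share of all genes called was not computed for the mean of both controls or for other choices and summaries of probe sets. Those counts therefore cannot be set against it. Centring arrays on their medians changed nothing, as these were already level, and tests nothing. Single values moved by less than 0.1 in 43 of 50 cases with the mean, 43 of 50 with the median of differences, 25 of 50 with the probe set of largest standard deviation, 8 of 20 without suffixed probe sets, 4 of 20 with DMSO as control, 2 of 10 with siNT as control and 6 of 30 with the mean of both controls. Without levels, genes near background could not be recognised.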
